A study of Mus musculus with 2 samples.

Results

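The 9 genes Il10, Ifng, Tnf, Il21, Ebi3, Fgl2, Fasl, Lta and Ltb encode cytokines and related secreted or membrane-bound mediators that regulatory T cells (Tregs) can make. They were taken by name, and every probe set that the platform annotation assigns to exactly 1 of them was used, which gave 12 probe sets of 45037 on the array and 9 genes of 18193 that had a named probe set. RNA was measured on Affymetrix mouse arrays, with 1 array of Tregs from DNR mice, which carry a dominant negative form of TGF-beta receptor II, and 1 array of Tregs from wild-type (WT) mice. Both samples were CD4+Foxp3+ cells purified by flow cytometry from the spleens of 10-week-old naive animals, and both genotypes were on the C57BL/6 background. The promoter that drives the receptor transgene, the number of mice behind each RNA and the way Foxp3 was detected in the sort are not stated in the labels. With 1 array per genotype no test was possible, so each difference below is a difference between these RNA samples, without a standard deviation or a p-value.

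Tregs restrain other lymphocytes partly through secreted factors. Interleukin-10 acts on myeloid cells and T cells through its receptor and STAT3, Ebi3 is a subunit that pairs with other chains into heterodimeric cytokines of the interleukin-12 family, and Fgl2 is secreted by Tregs and binds an inhibitory Fc receptor on antigen-presenting cells. Interferon-gamma, TNF and interleukin-21 are products of effector helper T cells that Tregs can also transcribe when they are activated. Lymphotoxin alpha and beta, encoded by Lta and Ltb, maintain the structure of lymphoid organs, and Fas ligand triggers death in cells that carry Fas.

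Transcripts of Ifng, Il10, Fgl2, Ebi3 and Il21 had higher signals in DNR Tregs, those of the lymphotoxins and of Fas ligand had lower signals, and Tnf was nearly equal. Signals were compared after values below a floor of 110.9, the higher of the arrays' medians, had been set to the floor, and a gene was called measured if its brightest probe set lay above the floor on at least 1 array. All 9 genes were measured, 8 of them on both arrays and Il21 on the DNR array alone. Of the 9, 6 had a higher signal in DNR Tregs and 3 a lower one. At least 2-fold higher were 3 genes, Ifng, Fgl2 and Il21, where 4.0% of the 11927 measured genes were, and 0 were at least 2-fold lower, where 2.93% of the measured genes were. The median log2 ratio of DNR over WT was 0.70 over the 9 genes, a 1.63-fold higher signal, against 0.01 over all measured genes, of which 51.4% had a higher signal in DNR Tregs. The genes were chosen with earlier results of these arrays known, so these counts describe the genes and do not test them as a group. In bulk RNA, more cells that make a transcript and more transcript per cell cannot be told apart.

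**Figure D1:**
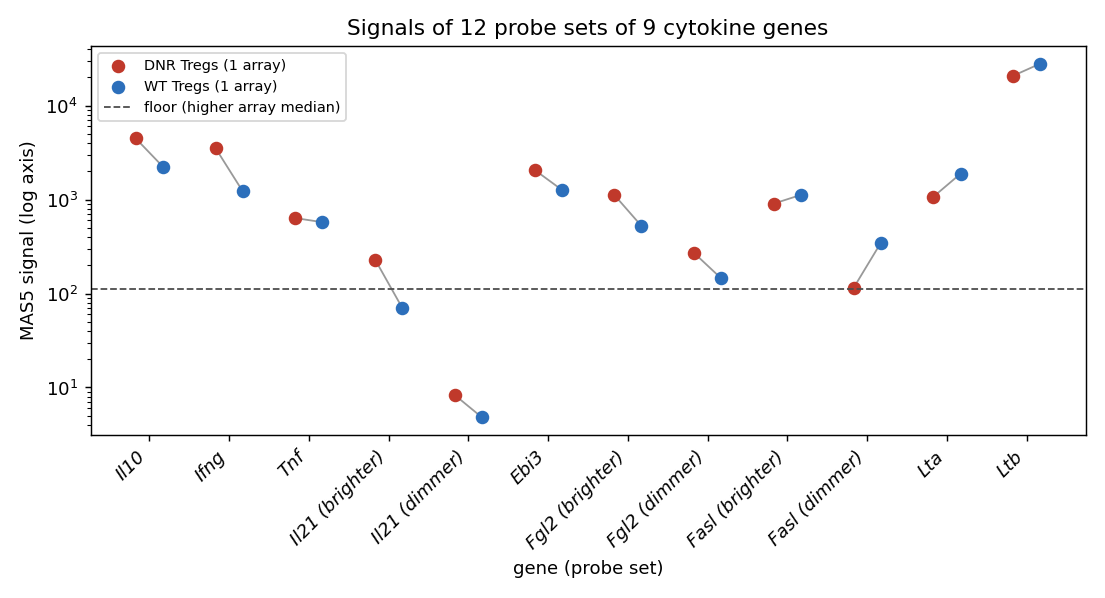
MAS5 signal (log axis) of the 12 probe sets of the 9 cytokine genes on the DNR array (red, left of each pair) and the WT array (blue, right), with the floor of 110.9 as a dashed line; each point is 1 array. The DNR point is the upper one for both probe sets of Fgl2 and Il21 and for Ifng, Il10, Ebi3 and Tnf, and the lower one for both probe sets of Fasl and for Lta and Ltb.

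The precision of a single ratio can be judged only from how far probe sets that share a gene disagree. Among the 3968 genes represented at least 2 times above the floor in both samples, the log2 ratio of 1 probe set scattered with a robust SD of 0.39. This scatter holds no differences between animals or between separate sorts. Of the 9 genes, 6 had a single probe set, and Fgl2, Fasl and Il21 had a pair. The log2 ratios of Tnf and Fasl lay within that scatter of 0, and that of Ltb was just outside it.

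Ifng, the gene of interferon-gamma and the signature cytokine of Th1 cells, had the largest ratio of the 9. Its probe set had a signal of 3524 in DNR Tregs and 1227 in WT Tregs, far above the floor on both arrays. The ratio was 2.87-fold, a log2 ratio of 1.52. Only 73 of the 11927 measured genes (0.612%) had a ratio as large or larger. Within each array's own ranking, which does not depend on how the arrays were scaled, the probe set lay at percentile 95.1 in DNR Tregs and 87.0 in WT Tregs.

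Il21 encodes interleukin-21, a cytokine of follicular helper and Th17 cells that supports B cells. Its brighter probe set had a signal of 230 in DNR Tregs and 70.5, below the floor, in WT Tregs, so the ratio is a lower bound, at least 2.07-fold. Its dimmer probe set had 8.30 in DNR Tregs and 4.80 in WT Tregs, below the floor on both. Both probe sets thus had the higher value in DNR Tregs, but only the brighter one was measured, and on 1 array. The bound depends on the floor, with a log2 ratio of 0.46 for a floor raised to the 60th percentile, and of 1.62 for one lowered to the 40th.

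Il10, the gene of the anti-inflammatory cytokine interleukin-10, had a signal of 4468 in DNR Tregs and 2238 in WT Tregs. The log2 ratio of 0.998 fell just short of 2-fold and was the value nearest to the threshold on its outer side, with Il21 the nearest inside it. With each of the other scalings it was just past the threshold, at log2 ratios of 1.01 and 1.02. Its ratio was matched or exceeded by 480 measured genes (4.02%). The percentile of its probe set within the array was 96.2 in DNR Tregs and 92.3 in WT Tregs.

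Fgl2, which encodes a secreted fibrinogen-like protein with suppressive activity, was the only gene of the 9 for which a pair of probe sets, each measured on both arrays, gave nearly the same ratio. The brighter probe set had 1118 in DNR Tregs and 523 in WT Tregs, a 2.14-fold difference. The dimmer one had 270 in DNR Tregs and 145 in WT Tregs, a 1.86-fold difference. Both were thus higher in DNR Tregs, and their median log2 ratio of 0.997 lay just under the threshold that the brighter one passed.

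Ebi3 encodes the subunit shared by interleukin-27 and interleukin-35. Its signal was 2069 in DNR Tregs and 1272 in WT Tregs, 1.63-fold higher and under the threshold. The chains that it pairs with were not measured: Il12a, the partner in interleukin-35, had 13.6 in DNR Tregs and 7.87 in WT Tregs, both below the floor, and no single-gene probe set was assigned to Il27. Of the related subunits, Il23a, the specific chain of interleukin-23, was at least 2.13-fold higher, with 236 in DNR Tregs and 63.6 in WT Tregs, and a floor raised to the 60th percentile gave a log2 ratio of 0.50. Il12b was below the floor on both arrays.

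The genes of TNF and the lymphotoxins are immediate neighbours on chromosome 17 in the order Ltb, Tnf, Lta in the RefSeq annotation, and their ratios differed. Tnf, the inflammatory cytokine gene in the middle, had 635 in DNR Tregs and 574 in WT Tregs, 1.11-fold. Lta, whose product forms a soluble trimer of its own or joins lymphotoxin beta on the membrane, had 1070 in DNR Tregs and 1882 in WT Tregs, 1.76-fold lower. Ltb, the membrane-anchored partner, had 20763 in DNR Tregs and 27969 in WT Tregs, 1.35-fold lower. The lymphotoxin probe sets were thus both lower in DNR Tregs while the probe set of the gene between them was slightly higher: the log2 ratio of Tnf exceeded that of Lta by 0.96 and that of Ltb by 0.58. Of all measured genes, 600 (5.03%) had a ratio as low as Lta or lower.

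Fasl, the gene of Fas ligand, had probe sets that were both lower in DNR Tregs but by unequal amounts. The brighter had 906 in DNR Tregs and 1122 in WT Tregs, 1.24-fold lower, within the scatter of single probe sets. The dimmer had 115 in DNR Tregs, just above the floor, and 345 in WT Tregs, 3.0-fold lower, and it is of a type (suffix _a_at) that can bind several transcripts of a gene. The size of the difference in Fasl is therefore uncertain, with a log2 ratio between -0.31 and -0.95 depending on whether the brighter probe set or the median over both was used.

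**Figure D2:**
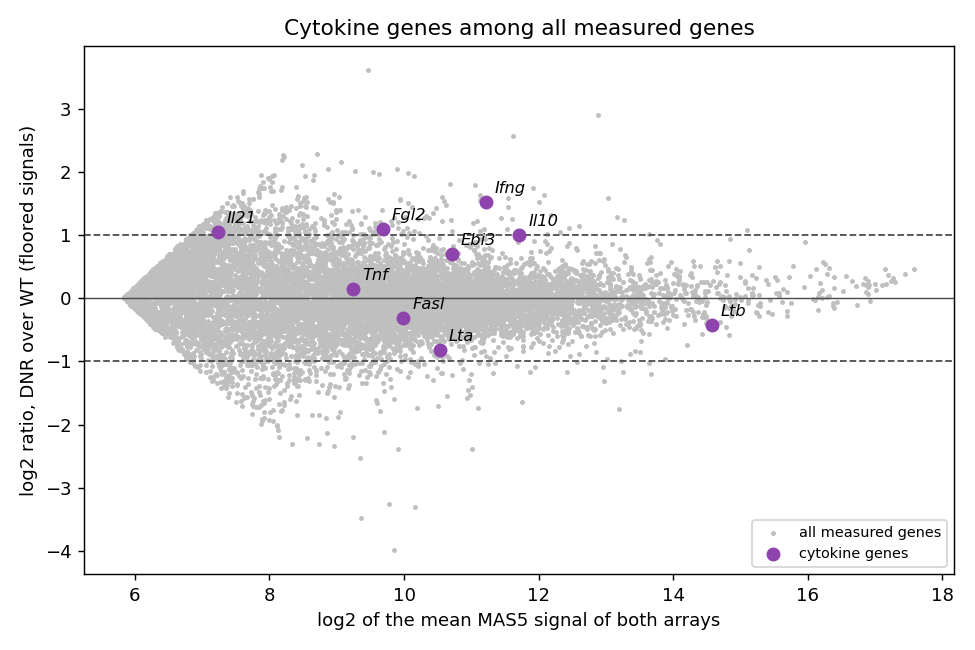
Log2 ratio of DNR over WT after flooring (vertical axis) against the log2 of the mean MAS5 signal of both arrays (horizontal axis) for the 11927 measured genes (grey), with the 9 cytokine genes in purple and dashed lines at 2-fold. Ifng and Fgl2 lie above the upper line, Il21 lies just above it on the edge set by the floor, Il10 lies on it, and no cytokine gene reaches the lower line.

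The upstream sequences of Ifng and Fgl2, the genes at least 2-fold higher in DNR Tregs with signals above the floor in both samples, and of the neighbours Tnf and Lta, whose ratios differed, are shown so that their elements can be compared. They are the 250 bases before the annotated transcript start in RefSeq, build GRCm38.p6, written 5′ to 3′ on the gene's strand. Of the 9 genes, 8 matched an entry of that table by symbol, and Il10 did not. Capitals mark letters of any of 6 motifs: GGAAA, the core of NFAT sites; TGANTCA, bound by AP-1; GGNNTTTCC, a kappaB motif, which contains the NFAT core of the other strand; AGGTGT, a T-box element; GTCTAGAC, the SMAD palindrome; and TATAAA, the TATA box. The first 5 were searched on both strands and TATAAA on the gene's strand. These sequences were not measured on the arrays.
Ifng, chr10:118440796-118441045, + strand: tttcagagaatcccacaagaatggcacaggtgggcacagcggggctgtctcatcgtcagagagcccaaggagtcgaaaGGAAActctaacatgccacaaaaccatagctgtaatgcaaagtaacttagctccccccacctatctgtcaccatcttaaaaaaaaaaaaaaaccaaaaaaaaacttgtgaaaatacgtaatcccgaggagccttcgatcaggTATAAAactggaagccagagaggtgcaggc
Fgl2, chr5:21372423-21372672, + strand: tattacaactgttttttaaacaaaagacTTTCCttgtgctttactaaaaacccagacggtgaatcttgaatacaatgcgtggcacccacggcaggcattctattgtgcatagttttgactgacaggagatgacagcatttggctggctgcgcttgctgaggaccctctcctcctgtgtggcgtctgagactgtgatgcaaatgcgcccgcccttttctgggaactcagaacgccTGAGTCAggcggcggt
Tnf, chr17:35202008-35202257, - strand: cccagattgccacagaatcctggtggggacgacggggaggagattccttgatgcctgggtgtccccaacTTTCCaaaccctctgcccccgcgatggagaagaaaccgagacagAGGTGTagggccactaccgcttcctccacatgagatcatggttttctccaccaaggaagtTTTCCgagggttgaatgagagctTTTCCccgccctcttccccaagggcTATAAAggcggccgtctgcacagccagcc
Lta, chr17:35205352-35205601, - strand: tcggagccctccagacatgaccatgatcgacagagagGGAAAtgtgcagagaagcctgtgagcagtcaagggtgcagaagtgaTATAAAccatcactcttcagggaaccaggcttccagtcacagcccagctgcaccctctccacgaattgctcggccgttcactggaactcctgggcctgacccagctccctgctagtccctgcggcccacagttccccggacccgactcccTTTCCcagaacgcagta

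The capitals differ between these promoters. Ifng holds a TATA box from base 30 to base 25 before the start, and Tnf one from base 29 to base 24, and each is preceded by NFAT cores, of which Ifng has 1 and Tnf has 3. Lta holds TATAAA farther upstream, from base 167, and 2 NFAT cores. Fgl2 has no TATAAA but an AP-1 motif, TGAGTCA, from base 16 to base 10. The NFAT core was present upstream of all 8 genes with an entry, but also in 55.6% of the 32851 promoters of the table. AGGTGT was present in 3 of the 8 (Il21, Ltb and Tnf) and in 11.8% of all promoters, and TATAAA in 3 of the 8 (Ifng, Lta and Tnf) and in 7.59%. TGANTCA was found in Fgl2 alone of the 8, and in 6.75% of all promoters, GGNNTTTCC in Ltb alone, and in 4.93%, and GTCTAGAC in 0 of the 8, and in 0.167%. A match or its lack is a description of letters in this window only.

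The receptors of these ligands were set beside them to show which receptor transcripts were measured in the same RNA samples. Of 17 receptor genes, 14 were measured, 7 with a higher and 7 with a lower signal in DNR Tregs, and the median log2 ratio was 0.08. At least 2-fold higher were 0, where 4.0% of all measured genes were. At least 2-fold lower was 1, where 2.93% of all measured genes were. The 1 was Ifngr2, the signalling chain of the interferon-gamma receptor, with 437 in DNR Tregs and 988 in WT Tregs, 2.26-fold lower, though its other probe set had a log2 ratio of -0.21. The ligand-binding chain Ifngr1 had 6068 in DNR Tregs and 4331 in WT Tregs. Il10ra, the specific chain of the interleukin-10 receptor, was 1.65-fold higher, with 949 in DNR Tregs and 575 in WT Tregs. Fcgr2b, the inhibitory Fc receptor that Fgl2 binds, had 436 in DNR Tregs and 224 in WT Tregs, just under 2-fold higher. Ltbr, the lymphotoxin beta receptor found mainly on stromal and myeloid cells, was below the floor on both arrays. Il6st, the shared chain gp130, was 1.89-fold lower, with 2017 in DNR Tregs and 3808 in WT Tregs, and all of its 3 other measured probe sets were lower too. Il12rb2, with 134 in DNR Tregs and 1.86 in WT Tregs, was above the floor in DNR Tregs alone, so its 1.21-fold ratio is a lower bound. Fcgr3, with 104 in DNR Tregs and 126 in WT Tregs, was above it in WT Tregs alone. With no floor, 1 receptor gene was at least 2-fold higher and 2 were at least 2-fold lower. Of all genes, 19.9% were at least 2-fold higher and 14.6% at least 2-fold lower with that setting.

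Other cytokine genes of CD4 T cells differed by less than 2-fold where they were above the floor on both arrays. Of 20 such genes 17 had a named probe set and 9 were measured, 7 higher and 2 lower in DNR Tregs. The median log2 ratio was 0.46, and after flooring 0 genes were at least 2-fold different in either direction. The helper cytokine genes Il3, Il5, Il6, Il9, Il13, Il17a and Csf2 were below the floor on both arrays. Il4, with 137 in DNR Tregs and 5.22 in WT Tregs, was above it in DNR Tregs alone. So were Il2, with 168 in DNR Tregs and 92.1 in WT Tregs, and Il1rn, with 191 in DNR Tregs and 64.1 in WT Tregs. The ratios of these genes are lower bounds, and their differences may be 2-fold or more. The brightest members were Il16, with 3708 in DNR Tregs and 3910 in WT Tregs, and Penk, which encodes the opioid precursor proenkephalin, with 2699 in DNR Tregs and 1965 in WT Tregs. Of 13 further ligands of the TNF superfamily 5 were measured, with a median of 0.01 and none at least 2-fold different. Tnfsf11, the gene of RANK ligand, had 2185 in DNR Tregs and 2174 in WT Tregs, and Tnfsf10, the gene of TRAIL, had 938 in DNR Tregs and 882 in WT Tregs. The largest difference of the 5 was in Tnfsf8, the gene of CD30 ligand, with 680 in DNR Tregs and 397 in WT Tregs, 1.71-fold higher.

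Transcription factors that bind cytokine genes went both ways. Of 29 measured, 12 were higher and 17 lower in DNR Tregs, with a median of -0.12. At least 2-fold lower was 1, where 2.93% of all measured genes were. At least 2-fold higher were 3, where 4.0% of all measured genes were. The 3 were Tbx21, which encodes T-bet, the activator of Ifng (731 in DNR Tregs and 283 in WT Tregs, 2.59-fold), Prdm1, which encodes Blimp-1, needed for interleukin-10 in effector Tregs (690 in DNR Tregs and 277 in WT Tregs, 2.49-fold), and Maf, an activator of Il10 and Il21 (8586 in DNR Tregs and 3875 in WT Tregs, 2.22-fold). The other 4 measured probe sets of Maf had log2 ratios of 0.45 to 0.95, and with the median over probe sets 2 of the factors, without Maf, were at least 2-fold higher. With that choice 2 factors were at least 2-fold lower, and the median of the list was 0.10. The brightest probe sets of Bcl6, Ikzf1, Nfatc1 and Nfatc2, for instance, were lower in DNR Tregs while their other measured probe sets were higher. Ahr, a ligand-activated factor that can act on Il10 and Il21, was lower by 3.03-fold, with 457 in DNR Tregs and 1382 in WT Tregs. Factors that degrade or bind cytokine mRNAs differed less on their brightest probe sets. Of 11 measured, 2 were higher and 9 lower, the median was -0.08 and none reached 2-fold. The brightest of them were Zfp36l1, with 28947 in DNR Tregs and 29828 in WT Tregs, and Zfp36l2, with 17778 in DNR Tregs and 26378 in WT Tregs; the other probe sets of Zfp36l2 disagreed in direction.

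Genes for proteins that shed or release these ligands differed by less than 2-fold. Of 7 measured genes 4 were higher and 3 lower in DNR Tregs, with a median of 0.20. Adam10, a protease that sheds Fas ligand, had 6824 in DNR Tregs and 5922 in WT Tregs. Adam17, which sheds TNF, had 1403 in DNR Tregs and 1570 in WT Tregs. Lamp1, a lysosomal membrane protein, had 6263 in DNR Tregs and 7630 in WT Tregs.

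Measured genes that interferon-gamma induces had a higher signal in DNR Tregs, some of them by little. A link to the signal of Ifng was not tested. Of 16 measured, all 16 had a higher signal in DNR Tregs, where 51.4% of all measured genes had. This depends on the floor, since Cxcl11 and Ciita were below it on both arrays. Cxcl11 had 63.6 in DNR Tregs and 90.0 in WT Tregs, and Ciita 94.2 in DNR Tregs and 43.4 in WT Tregs. The list was chosen with earlier results of these arrays known, so the counts describe it and do not test it. The median was 0.53. At least 2-fold higher were 4, where 4.0% of all measured genes were, and 0 were at least 2-fold lower. The 4 were Iigp1, an immunity-related GTPase (6546 in DNR Tregs and 2111 in WT Tregs), Cxcl10, a chemokine (4464 in DNR Tregs and 1484 in WT Tregs), Cd274, which encodes the checkpoint ligand PD-L1 (3929 in DNR Tregs and 1633 in WT Tregs), and Gbp2, a guanylate-binding protein (7690 in DNR Tregs and 3554 in WT Tregs, on a probe set with the suffix _x_at, which may cross-hybridise). The other probe set of Gbp2 had a log2 ratio of 0.66, and 3 genes were at least 2-fold higher with the median over probe sets or without probe sets of such suffixes. The log2 ratios of Irf1, Irf8, Gbp3, Irgm2, Cxcl9, Socs1 and Psmb8 lay within the probe-set scatter of 0.39. Several of the interferon-gamma inducible genes also respond to type I interferon. Targets of NF-kappaB, which TNF receptors activate, had a median of 0.19 over 10 measured genes, 7 higher and 3 lower. At least 2-fold higher was 1 of them, where 4.0% of all measured genes were. It was the adhesion molecule gene Icam1, with 4019 in DNR Tregs and 1869 in WT Tregs.

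**Figure D3:**
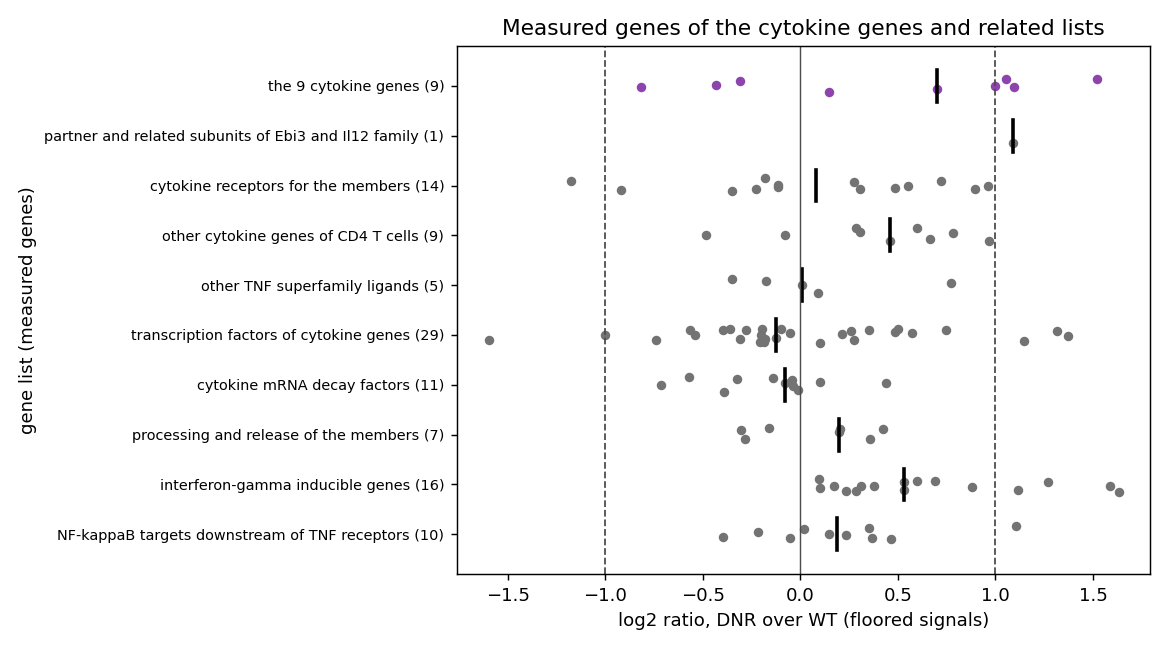
Log2 ratio of DNR over WT after flooring for each measured gene (points) of the 9 cytokine genes (top row) and of 9 related lists, with the median of each as a vertical bar and dashed lines at 2-fold; vertical scatter within a row carries no value. The medians are 0.70 for the cytokine genes, 0.53 for interferon-gamma inducible genes and 0.08 for the cytokine receptors.

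Several of the 9 genes are also transcribed by cells other than Tregs, and markers of such cells differed between the arrays. All 9 Treg and CD4 T cell markers were above the floor on both arrays, with Foxp3 at 4550 in DNR Tregs and 3754 in WT Tregs and Cd4 at 415 in DNR Tregs and 595 in WT Tregs. Macrophages and monocytes can make Tnf, Il10 and Fgl2. Their markers had a summed signal of 4269 in DNR Tregs and 5986 in WT Tregs over 13 genes, with 4 and 5 of these at or below the floor; of 9 measured, 1 was higher and 8 lower, and 3 (C1qa, C1qc and Vcam1) were at least 2-fold lower. Dendritic cells can make Ebi3. Their markers summed to 14004 in DNR Tregs and 17950 in WT Tregs over 11 genes, with 5 and 7 at or below the floor; of 6 measured, 2 (Itgax and Siglech, above the floor in DNR Tregs alone) were higher and 4 (Bst2, Cd83, H2-Aa and H2-Ab1) lower, and Cd83, which activated T cells express as well, made up most of the sum. NK and CD8 T cells can make Ifng, Fasl and Tnf. Their markers summed to 1471 in DNR Tregs and 1247 in WT Tregs over 8 genes, with 2 and 3 at or below the floor. Of 6 measured, 4 (Cd8a, Klrd1, Ncr1 and Prf1) were higher and 2 (Cd8b1 and Eomes) lower. Ncr1, with 168 in DNR Tregs and 9.61 in WT Tregs, was above the floor in DNR Tregs alone. The median log2 ratio of these markers was 0.50 on the brightest probe sets and -0.03 with the median over probe sets. B cells can make Ltb and Lta. B and plasma cell markers summed to 1972 in DNR Tregs and 1415 in WT Tregs over 9 genes, with 5 and 4 at or below the floor; of 6 measured, 3 were higher and 3 lower, with Cd22 at 444 in DNR Tregs and 162 in WT Tregs and Ms4a1 at 76.4 in DNR Tregs and 126 in WT Tregs. Neutrophil markers summed to 1479 in DNR Tregs and 780 in WT Tregs over 10 genes, with 6 and 8 at or below the floor. Of 4 measured, 3 (Mmp9, Ngp and S100a8) were at least 2-fold higher, and Elane was lower. Ngp and S100a8 were above the floor in DNR Tregs alone, so their ratios are lower bounds. The part of these cells in the ratios of the 9 cytokine genes was not tested.

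**Figure D4:**
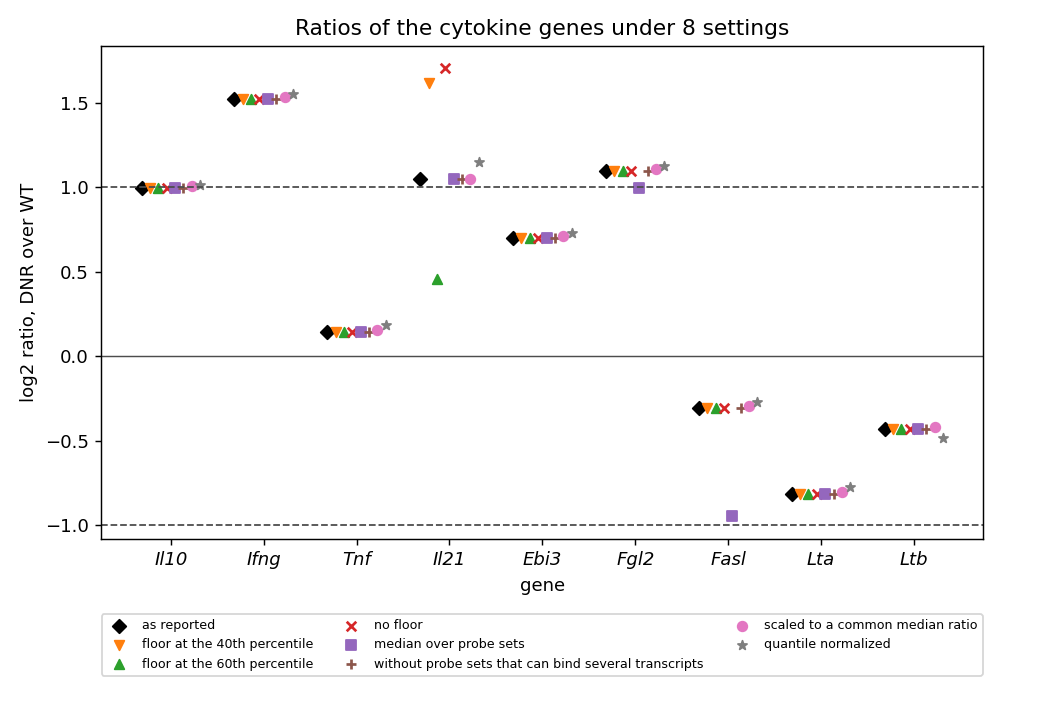
Log2 ratio of DNR over WT of each of the 9 cytokine genes as reported (black diamonds) and under 7 other choices of floor, probe set and scaling (other symbols), with dashed lines at 2-fold. The direction is the same for every gene in all 8 settings; Ifng stays above 2-fold in each, Il21 spans 0.46 to 1.71, and Fasl spans -0.95 to -0.27.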

How the data were processed

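Each sample was hybridised to 1 array. The authors made the deposited intensity values, 1 linear signal per probe set, with MAS5, per the submitters' processing notes; its version and scaling target were not given in the sources used here. Without the highest and lowest 2% of values both arrays had a mean of 500.0, so they shared a scale by that mean. Ratios are therefore relative to each array's own mean and say nothing about RNA per cell. The medians differed, at 110.9 for DNR Tregs and 91.0 for WT Tregs.

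Of 45101 probe sets 64 controls were set aside, and 34945 of the remaining 45037 had 1 gene in the platform annotation, with symbols updated through Entrez identifiers. Values under the floor (the higher array median, 110.9) were set to it, log2 was taken, and the probe set with the highest mean over both arrays stood for its gene. A difference was described by its size, with a threshold of 2-fold. The alternatives were floors at the 40th and 60th percentile or none, the median over probe sets, leaving out probe sets that can bind several transcripts, scaling to a common median ratio, quantile normalization, and thresholds of 1.5-fold and 3-fold. Named genes are all members, plus receptors and partner chains of a member. Per related list, up to 4 genes at least 2-fold different, or the 2 brightest, were also named. Cell type markers and genes named as below the floor or on 1 array were chosen after their values were seen. So were Adam17, Il6st and Tnfsf8, and genes named for a ratio within the scatter or for probe sets that disagree. The members and lists were chosen with earlier results of these data known. The procedure was tested on simulated data with changes well past the threshold, planted in genes far above the floor. The simulated scatter was narrower than that between the arrays. Changes near the threshold or near the floor were not simulated. Python 3.11.15, pandas 2.3.3 and numpy 2.4.6 were used.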

Additional observations from a re-analysis of the deposited data

How the results depend on the processing

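The direction of all 9 cytokine genes was the same under the 7 alternatives that change the floor, the probe set or the scaling. Ifng was at least 2-fold higher in each, Il21 in 6 (0.46 on the log2 scale for a floor at the 60th percentile) and Fgl2 in 6 (0.997 with the median over probe sets), while Il10 was past 2-fold only under the 2 other scalings. The 3 genes at least 2-fold higher became between 2 and 4 under these alternatives, while the share of all measured genes past that threshold was 2.52% for a floor at the 60th percentile, 7.30% at the 40th and 19.9% with none, and the median log2 ratio ranged from 0.46 to 0.73. With a threshold of 1.5-fold 5 genes were higher and 1, Lta, was lower (12.8% and 9.85% of all measured genes); with a threshold of 3-fold 0 were higher (0.470% of all). Of 63 recomputed ratios of the members 4 moved by more than the scatter of a probe set (3 of Il21, 1 of Fasl), and of 105 list medians 9 did. Of 162 list counts 25 changed by over 1.5 times: with no floor, 8 of the other CD4 T cell cytokine genes were at least 2-fold higher, against 0 as reported, and the median of the TNF superfamily ligands was 0.77. The median of the neutrophil markers was 1.37 as reported and 0.21 for the floor at the 40th percentile. No paired analysis was possible because each genotype had 1 array. The number of arrays limits the precision, and ratios near the floor are compressed.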
